A study of Mus musculus with 2 samples.

Results

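The genes of antigen presentation by the major histocompatibility complex (MHC) and of the interferon response were followed in 2 total RNA sequencing libraries of mouse adrenal gland. The set held 39 genes, listed by gene name with no measured value in the rule, of 55536 annotated genes in the tables, 22015 of them nuclear protein-coding. It divides into 8 class I heavy chains, 7 genes that supply class I molecules with peptide and light chain, 9 class II genes, 7 transcriptional regulators and 8 interferon-stimulated genes. Both libraries belong to 1 group: male B6CASTF1/J mice aged 14 days, F1 hybrids of the C57BL/6J and CAST/EiJ strains, untreated as far as the labels say. Each library was made with a directional kit from 300 ng of total RNA, with ERCC spike-in RNAs. The labels use the words 3x Males without saying what they count, and their pool numbers are equal in the sample descriptions but not in the tissue descriptions, so separate animals cannot be assumed. There was no second condition to compare, so the results are levels, ratios within a library and differences between replicate 1 and replicate 2, none of which has a p-value.

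Class I molecules stand on nearly all nucleated cells and show peptides cut from cytosolic proteins by the proteasome to CD8 T cells. The peptides are carried into the endoplasmic reticulum by the Tap1-Tap2 transporter, loaded with the help of tapasin and bound by a heavy chain paired with beta-2-microglobulin. Class II molecules are made mainly by B cells, dendritic cells and macrophages, travel with the invariant chain Cd74 and show peptides from endocytosed proteins to CD4 T cells. Interferons raise both pathways, and they induce a separate set of antiviral genes through Stat and Irf factors.

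The libraries held 32963248 expected counts in replicate 1 and 36260745 in replicate 2, of which 17154352 and 19024838 fell on nuclear protein-coding genes. Levels are TPM, transcript abundance corrected for transcript length and depth, from the deposited RSEM-style tables unless kallisto is named. Marker genes placed both samples as adrenal tissue, with cortex markers summing to 4847 TPM in replicate 1, against 5291 TPM in replicate 2, and chromaffin markers to 850 and 828 TPM. Other tissues differed between the samples: lymph node stroma markers summed to 107 TPM in replicate 1, against 3.33 TPM in replicate 2, while liver markers summed to 239 TPM in replicate 1, against 4203 TPM in replicate 2. Pan-leukocyte markers summed to 77.4 TPM in replicate 1, against 13.3 TPM in replicate 2. In bulk tissue, fewer cells of a type and less RNA per cell cannot be told apart.

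At a minimum of 1 TPM, 27 of the 39 genes were detected in both libraries, against 54.2% of all nuclear protein-coding genes. By library, 37 members reached that level in replicate 1 and 28 in replicate 2. Together the members summed to 884 TPM in replicate 1, against 694 TPM in replicate 2, and Ifi27 alone made up 310 and 324 TPM of these sums. For ratios between the libraries, a gene needed a mean of at least 1 TPM, which left out H2-Oa and Ifit1, and 0.1 TPM was added to both values before taking log2. Of the 37 members left, 13 were over 2-fold higher in replicate 1, against 2.34% of 12535 nuclear protein-coding genes. Since 8 of these 13 were under 1 TPM in replicate 2, they passed the minimum only through replicate 1, where they are high, and their count supports nothing. Of the 27 members at 1 TPM or more in both libraries, 5 were over 2-fold higher in replicate 1, against 1.07% of 11942 genes, and all 5 were class II genes. None of the 37 was over 2-fold higher in replicate 2, against 3.33% of those genes. The median log2 ratio of replicate 1 over replicate 2 was 0.70 over the 37 members and 0.065 over all 12535 genes, whose middle 50% lay between -0.079 and 0.22. Since the 37 include members that passed the minimum only through replicate 1, this median does not support a difference from all genes. Of the 13 genes, 8 belonged to the class II group, 2 to class I heavy chains, 2 to the regulators and 1 to the interferon-stimulated genes. At a minimum mean of 5 TPM, 4 of 19 members were past 2-fold. The share of all genes at that minimum was not computed, so this count has no comparison.

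**Figure D1:**
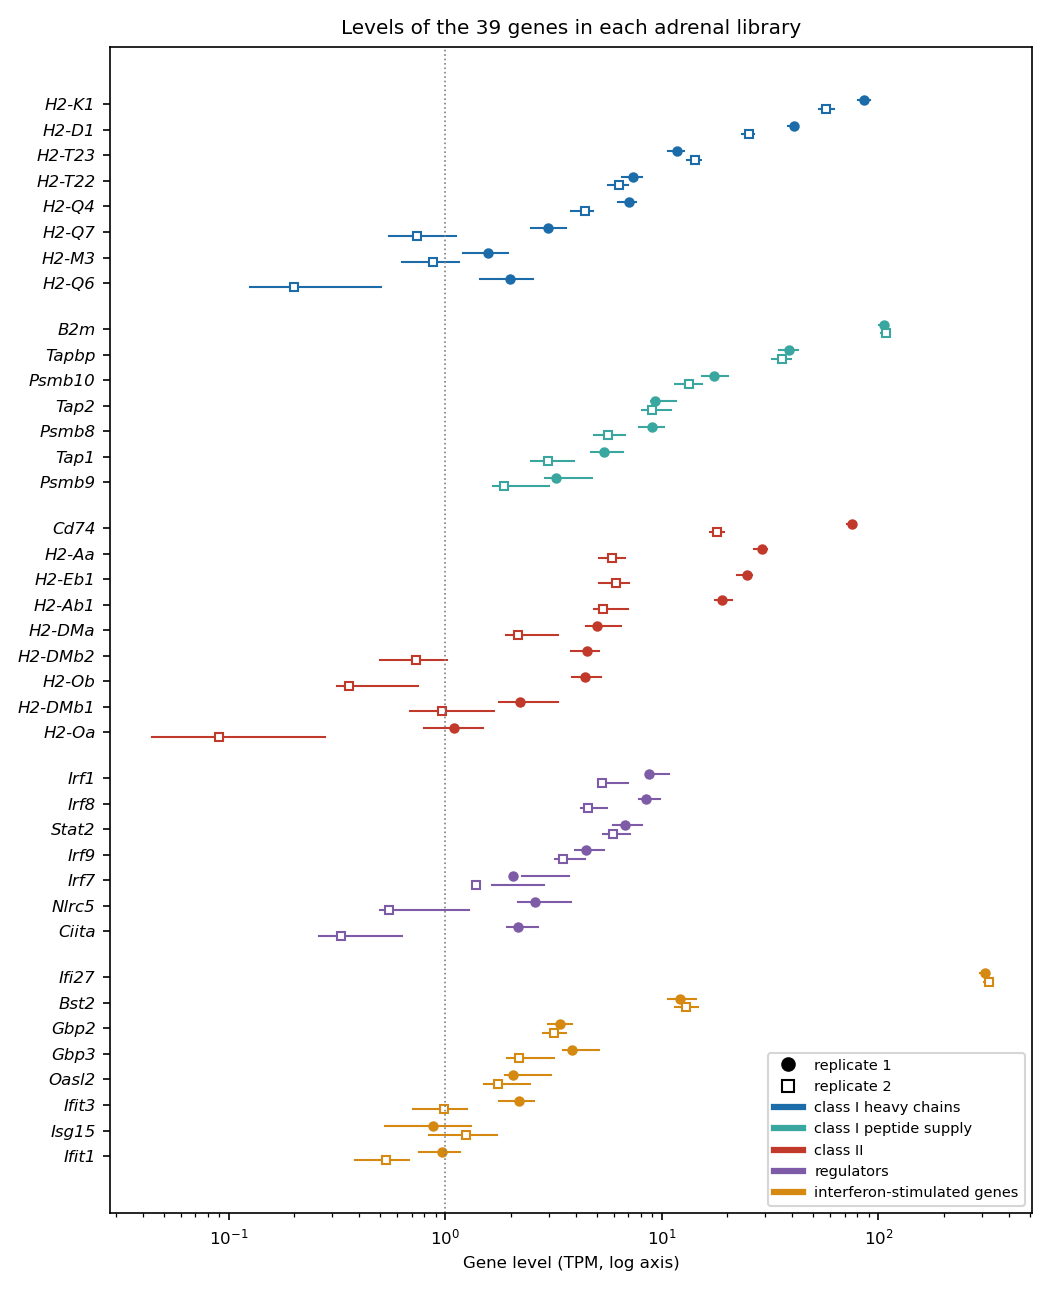
Level of each of the 39 genes in TPM on a log axis, with replicate 1 as filled circles and replicate 2 as open squares. Horizontal lines are the deposited credibility intervals around the posterior mean TPM, and the dotted line marks 1 TPM; Cd74, H2-Aa, H2-Eb1 and H2-Ob are among the genes with wide gaps, while B2m, Tap2, Tapbp and Ifi27 lie almost on top of each other.

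The class II genes Cd74, H2-Aa, H2-Ab1, H2-Eb1 and H2-DMa, the 5 at 1 TPM or more in both libraries, were all over 2-fold higher in replicate 1. H2-DMb1, H2-DMb2 and H2-Ob were as well, but passed the minimum mean only through replicate 1; over these 8 the log2 ratios lay between 1.12 and 3.30, with a median of 2.02. Cd74, the invariant chain that fills the groove of new class II molecules, had 75.6 TPM in replicate 1, against 18.01 TPM in replicate 2, a 4.18-fold difference. The I-A alpha chain gene H2-Aa had 28.8 TPM in replicate 1, against 5.86 TPM in replicate 2, which is 4.85-fold. Its partner H2-Ab1, the I-A beta chain, stood at 18.9 and 5.33 TPM in replicates 1 and 2, and the I-E beta chain gene H2-Eb1 at 24.6 and 6.15 TPM. Replicate 1 was thus the higher library for each chain, and the order Cd74 over H2-Aa held in both, at log2 ratios of 1.39 in replicate 1 and 1.62 in replicate 2. In TPM, H2-Aa exceeded H2-Ab1 1.53-fold in replicate 1 and 1.10-fold in replicate 2.

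The accessory class II genes had lower levels and differed more among themselves. H2-DMa and its beta chains encode the editor H2-DM, which exchanges the invariant chain remnant for peptide. H2-DMa had 5.01 TPM in replicate 1, against 2.16 TPM in replicate 2, 2.26-fold apart. With H2-DMb1 at 2.18-fold, it is among the values just past the 2-fold line, and by kallisto it was 1.88-fold. H2-DMb1 had 2.21 and 0.96 TPM in replicates 1 and 2. H2-DMb2 had 4.52 TPM in replicate 1, against 0.73 TPM in replicate 2, 5.57-fold apart. H2-Ob, the beta chain of H2-DO, an inhibitor of H2-DM found mainly in B cells, had the largest ratio of all members tested, with 4.42 TPM in replicate 1, 0.36 TPM in replicate 2 and a 9.83-fold difference. Its partner H2-Oa fell short of the minimum, with 37 expected counts and 1.09 TPM in replicate 1 and 3 counts and 0.09 TPM in replicate 2. The 2 H2-DO chains summed to 0.469 of the 3 H2-DM genes in replicate 1 and to 0.117 of them in replicate 2. H2-Ob rests on 240 counts in replicate 1 and 22 in replicate 2, so its ratio is less precise than that of Cd74, with 2851 and 753 counts.

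Leukocyte markers moved with the class II genes. All 5 pan-leukocyte markers, all 5 B cell markers and all 5 T cell markers were over 2-fold higher in replicate 1, with median log2 ratios of 2.65, 2.44 and 2.75. B cell markers summed to 29.8 TPM in replicate 1, against 5.20 TPM in replicate 2, and T cell markers to 23.8 and 3.21 TPM. The lymph node stroma gene Glycam1, with 966 expected counts in replicate 1, had 0 counts in replicate 2. Macrophage markers were close, with summed levels of 35.9 TPM in replicate 1 and 32.6 TPM in replicate 2, a median log2 ratio of 0.034 and 0 of 6 past 2-fold. Dendritic cell markers were near the limit of detection: 1 of 6 passed the minimum, and Flt3, Xcr1, Clec9a, Itgax and Cd209a ranged from 0.08 to 0.56 TPM in replicate 1 and from 0.02 to 0.22 TPM in replicate 2. Of the 4 plasmacytoid dendritic cell markers, 2 passed the minimum and 0 were past 2-fold, and Siglech, under the minimum, had 1.10 TPM in replicate 1, against 0.06 TPM in replicate 2. Endothelium markers summed to 179.7 TPM in replicate 1, against 156 TPM in replicate 2, with 0 of 4 past 2-fold. Relative to the pan-leukocyte sum, the class II chains with Cd74 lay at 1.91-fold in replicate 1 and 2.65-fold in replicate 2, so on that scale replicate 2 was the higher library. The part of these markers in the class II difference was not tested.

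**Figure D2:**
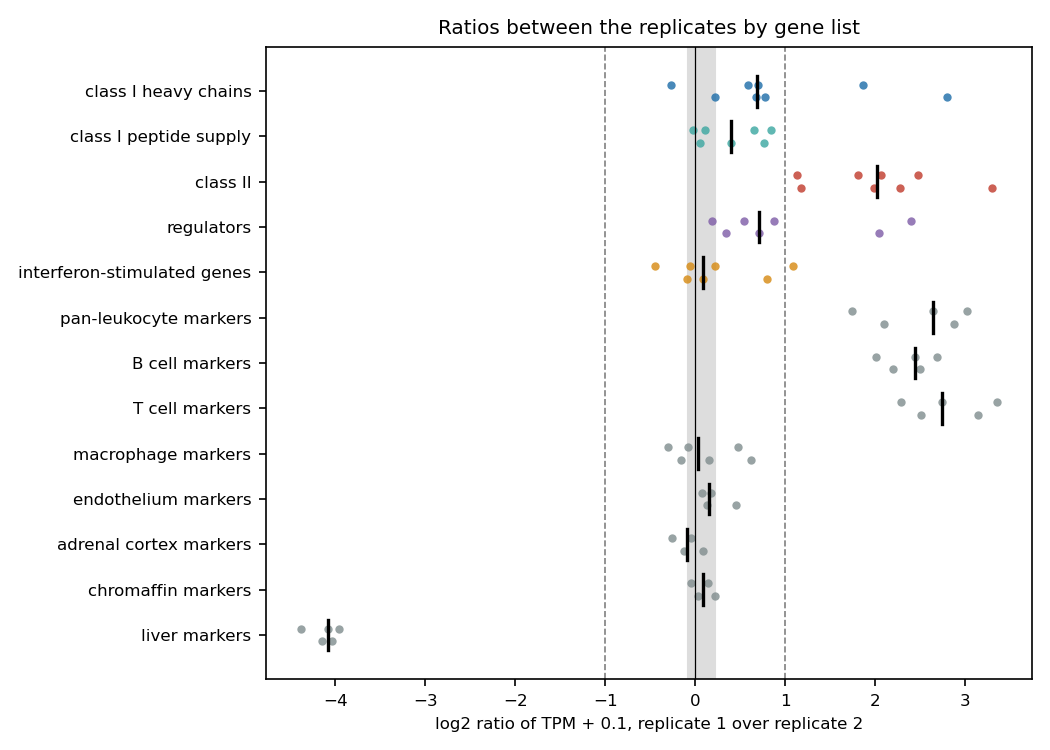
Log2 ratio of TPM + 0.1, replicate 1 over replicate 2, for each gene with a mean of at least 1 TPM (points) and the median of its list (black bars), for the member groups and for marker lists in grey. The grey band holds the middle 50% of all nuclear protein-coding genes and dashed lines mark 2-fold; class II genes lie with the pan-leukocyte, B cell and T cell markers, whereas macrophage, endothelium, cortex and chromaffin markers lie within 2-fold.

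The promoter windows of H2-Eb1 and H2-Ob are shown because class II promoters carry an X box bound by the RFX complex and a Y box, a CCAAT motif in reverse bound by NF-Y, which together recruit Ciita. The windows run from 250 bases before to 50 bases after the start of transcription and come from RefSeq on build GRCm38.p6. Capitals mark the CCAAT motif on either strand and the X box core, spelled here as GCAACNNAT on either strand.
H2-Eb1 (chr17:34305617-34305916, plus strand): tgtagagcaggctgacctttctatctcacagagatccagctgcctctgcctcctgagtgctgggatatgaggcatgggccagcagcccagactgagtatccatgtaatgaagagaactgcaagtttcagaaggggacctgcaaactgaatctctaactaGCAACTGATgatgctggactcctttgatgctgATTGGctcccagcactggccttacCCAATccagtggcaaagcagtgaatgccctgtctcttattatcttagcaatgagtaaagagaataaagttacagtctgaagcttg
H2-Ob (chr17:34238655-34238954, plus strand): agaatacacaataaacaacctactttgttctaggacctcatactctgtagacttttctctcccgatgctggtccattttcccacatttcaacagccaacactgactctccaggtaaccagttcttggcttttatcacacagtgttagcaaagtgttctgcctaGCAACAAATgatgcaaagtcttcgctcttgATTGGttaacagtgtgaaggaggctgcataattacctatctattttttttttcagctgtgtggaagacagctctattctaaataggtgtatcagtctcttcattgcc
In H2-Eb1 the X box core ends 23 bases before the first CCAAT match, and in H2-Ob 21 bases before it. The X box core was added to the search after these windows had been seen, and it occurs in 1.74% of all 32851 RefSeq windows.

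RefSeq windows were matched by symbol for 33 of the 39 members, 39 windows in all. A CCAAT match lay in a window of all 7 class II genes matched and of all 8 class I heavy chain genes, against 41.1% of all 27025 genes with a window. The X box core was found in 2 of the 7 class II genes, H2-Eb1 and H2-Ob. The core of the interferon-stimulated response element, searched as GAAANNGAA on both strands, was in 0 of 7 class II genes and in 6 of 7 interferon-stimulated genes, against 9.76% of all genes. It was in 2 of 8 class I heavy chain genes, H2-T22 and H2-T23, 1 of 6 peptide supply genes, B2m, and 1 of 5 regulators, Stat2. Only exact matches were counted, so an element spelled otherwise would be missed in any window. The kappa B pattern GGGNNTTCC was in 5 of 8 class I heavy chain genes, H2-K1, H2-D1, H2-Q4, H2-Q6 and H2-Q7, against 6.58% of all genes. The gamma-activated pattern TTCNNNGAA was in 6 of 33 members, against 9.55% of all genes. These matches describe letters in the reference windows, and no binding was measured.

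**Figure D3:**
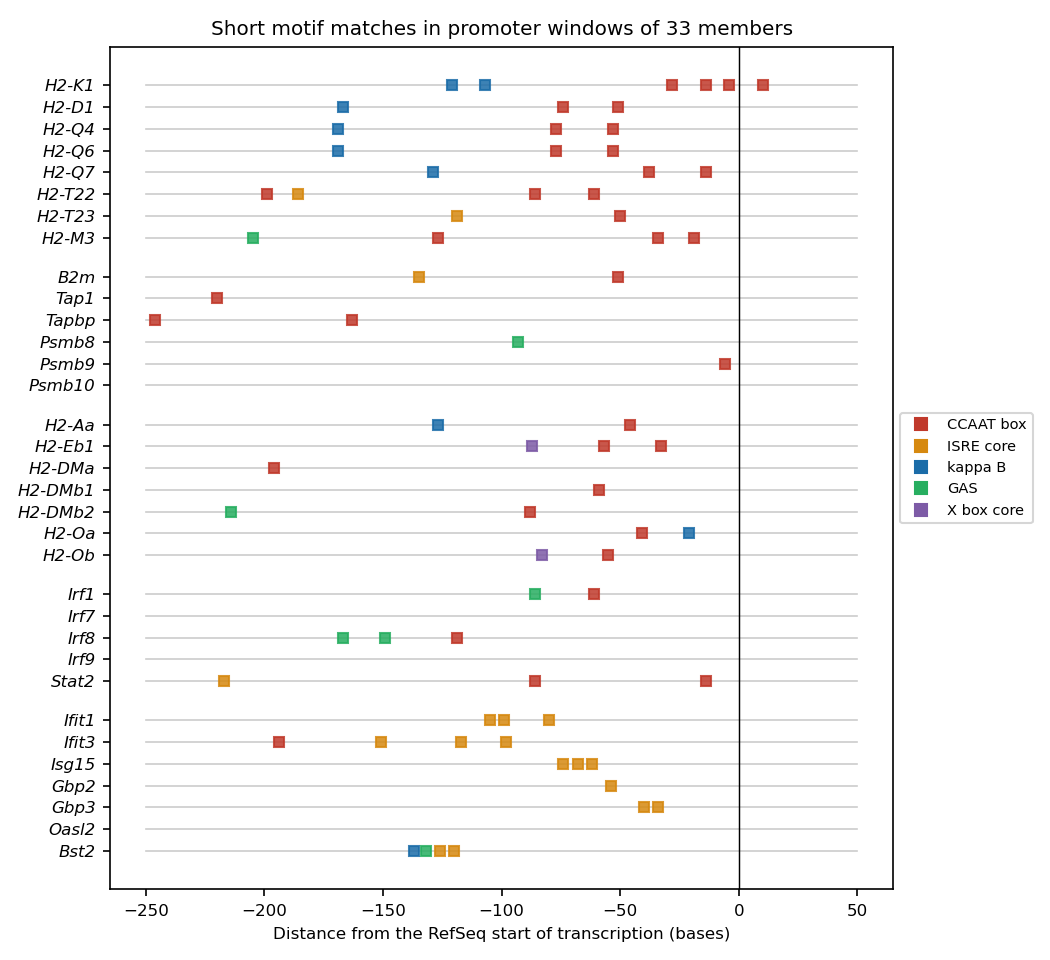
Position of each motif match, in bases from the RefSeq start of transcription, in the promoter windows of 33 members, grouped as in the text; where a gene has several windows, each match is drawn from the start of its own window. CCAAT matches are present in all 7 class II and all 8 class I heavy chain genes drawn, and interferon-stimulated response element cores in 6 of the 7 interferon-stimulated genes.

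The classical class I heavy chains were the most abundant of their group in both libraries. H2-K1 had 85.7 TPM in replicate 1, against 57.2 TPM in replicate 2, and H2-D1 had 40.9 TPM in replicate 1, against 25.2 TPM in replicate 2. Both were higher in replicate 1, H2-K1 1.496-fold and H2-D1 1.62-fold, and for each gene the deposited credibility intervals of the libraries did not overlap. Intervals lay wholly higher in replicate 1 for 11.6% of 12535 nuclear protein-coding genes, and they do not cover the spread between animals. The non-classical heavy chains ranged more widely. H2-T23, the Qa-1 molecule recognised by inhibitory receptors of natural killer cells, had 11.8 TPM in replicate 1, against 14.2 TPM in replicate 2. It was the only member whose credibility interval lay wholly higher in replicate 2, against 8.9% of those 12535 genes, and the difference was under 2-fold. H2-T22, which gamma delta T cells recognise, stood at 7.35 and 6.30 TPM in replicates 1 and 2, and H2-Q4 at 7.04 and 4.39 TPM. H2-M3, which presents formylated bacterial peptides, stood at 1.57 and 0.88 TPM.

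H2-Q6 and H2-Q7, which encode Qa-2 molecules, were the only heavy chain genes past 2-fold. Both were under 1 TPM in replicate 2 and passed the minimum mean only through replicate 1, so their count supports nothing. No heavy chain gene at 1 TPM or more in both libraries was past 2-fold. H2-Q7 had 2.96 TPM in replicate 1, against 0.74 TPM in replicate 2, 3.64-fold apart, and H2-Q6 had 1.98 TPM in replicate 1, against 0.20 TPM in replicate 2, 6.93-fold apart. Both are higher in replicate 1, but H2-Q6 had only 13.9 expected counts in replicate 2. Their split is uncertain, since their aligned coding sequences are 95.4% identical, with 45 differences in 978 bases. A stretch near the start of each is shown because it holds 13 of these differences, in capitals. It was read from the reference transcripts on mm10, plus strand.
H2-Q6 (chr17:35425109-35425198): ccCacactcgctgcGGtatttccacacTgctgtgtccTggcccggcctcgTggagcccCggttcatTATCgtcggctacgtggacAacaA
H2-Q7 (chr17:35439453-35439542): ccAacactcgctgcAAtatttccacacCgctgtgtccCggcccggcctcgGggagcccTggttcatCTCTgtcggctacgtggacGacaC
H2-Q7 shared more of its 100-base stretches with another class I gene, H2-Q10, than with H2-Q6, at 5.56% against 3.42%. Of all 100-base stretches in the transcripts of each gene, 89.2% of those of H2-Q6 and 88.0% of those of H2-Q7 occur in no other gene. The beta chain copies H2-DMb1 and H2-DMb2 are similarly close, at 95.9% coding identity, with 88.7% and 89.7% of their 100-base stretches unique. Their most divergent stretch, with 19 differences in capitals, is shown because the libraries differ 2.18-fold for H2-DMb1 and 5.57-fold for H2-DMb2.
H2-DMb1 (chr17:34155583-34155672, plus strand): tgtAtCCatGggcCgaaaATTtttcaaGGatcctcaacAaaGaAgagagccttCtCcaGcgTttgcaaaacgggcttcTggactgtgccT
H2-DMb2 (chr17:34147801-34147890, plus strand): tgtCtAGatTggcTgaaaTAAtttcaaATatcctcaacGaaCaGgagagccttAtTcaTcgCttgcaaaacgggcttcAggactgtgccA
By kallisto the ratios were 3.79-fold for H2-DMb1 and 5.38-fold for H2-DMb2, so the gap between the copies depended on the quantification. Among all members, 25 were unique over every 100-base stretch, and Ifit3, which shares 31.7% of its stretches with Ifit3b, was the least unique. Over 95% of such stretches were unique in 33 members, of which 31 passed the minimum mean of 1 TPM and 8 were over 2-fold higher in replicate 1. Without regard to uniqueness, 2.34% of all 12535 nuclear protein-coding genes were. The 8 include H2-Ob, Nlrc5 and Ciita, which passed the minimum only through replicate 1, so this count supports nothing. Reads of CAST alleles were quantified on the mm10 reference, the C57BL/6J sequence, and what this did to the polymorphic MHC genes was not measured.

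The promoter window of H2-K1 is shown for the kappa B match and the CCAAT pair that it shares with H2-D1, H2-Q4, H2-Q6 and H2-Q7, with the matches in capitals.
H2-K1 (chr17:34000284-34000583, minus strand): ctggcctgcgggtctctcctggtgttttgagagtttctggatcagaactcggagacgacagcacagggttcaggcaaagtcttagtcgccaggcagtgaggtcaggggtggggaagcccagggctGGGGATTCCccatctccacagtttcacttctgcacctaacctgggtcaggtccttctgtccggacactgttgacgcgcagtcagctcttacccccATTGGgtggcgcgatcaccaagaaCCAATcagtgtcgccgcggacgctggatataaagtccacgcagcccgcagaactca
In the window of H2-D1 the kappa B match begins 171 bases and the CCAAT pair 76 and 53 bases before the start, and in this window of H2-K1 they begin 125, 30 and 6 bases before it.

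The TPM of H2-K1 exceeded that of H2-D1 by a log2 ratio of 1.07 in replicate 1 and 1.18 in replicate 2. Of H2-K1 TPM, 47.6% in replicate 1 and 48.9% in replicate 2 was placed on H2-K1-215, a 457-base retained intron transcript, by RSEM; kallisto placed 25.9% and 25.7% there. On transcripts typed protein coding alone, the mean log2 ratio was 0.14 by RSEM and 0.65 by kallisto, and on expected counts it was 0.047, with 2320 counts for H2-K1 and 2384 for H2-D1 in replicate 1 and 1754 and 1600 in replicate 2. Counts do not correct for length, so the counts of these genes are given as evidence behind each level and not as a comparison of levels.

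Of the peptide supply genes, 0 of 7 were past 2-fold. This is near the share of all 12535 nuclear protein-coding genes, 2.34% higher in replicate 1 and 3.33% in replicate 2. The median log2 ratio of the 7 genes was 0.39, which became 0.11 when counts were scaled by TMM. B2m, the light chain of every class I molecule, had 107 TPM in replicate 1, against 108 TPM in replicate 2. Tap2 stood at 9.29 and 8.96 TPM in replicates 1 and 2, and tapasin, Tapbp, at 38.6 and 35.7 TPM, with ratios of 1.04-fold and 1.08-fold. Tap1, the other subunit of the transporter, had 5.42 TPM in replicate 1, against 2.99 TPM in replicate 2, a 1.79-fold difference just short of the line. The Tap2 over Tap1 ratio was 1.71 in replicate 1 and 3.00 in replicate 2. Tap1 and Psmb9 are divergently transcribed neighbours, with RefSeq starts 226 bases apart, and Psmb9 differed by a like amount, 1.70-fold, with 3.24 TPM in replicate 1 and 1.87 TPM in replicate 2. B2m in TPM lay at 0.669 of the summed heavy chains in replicate 1 and at 0.992 of them in replicate 2.

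The 7 loading helpers outside the set were all within 2-fold, like most nuclear protein-coding genes. The chaperone Calr was at 139 TPM in replicate 1, against 150 TPM in replicate 2, and the proteasome activator subunit Psme2 at 100.2 and 94.2 TPM.

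The immunoproteasome replaces 3 catalytic subunits of the constitutive proteasome. All 3 replacements were far below their counterparts in both libraries. In replicates 1 and 2, Psmb8 had 8.95 and 5.66 TPM, against 68.8 and 66.9 TPM for Psmb5. Psmb9, at the values above, compares with 68.6 TPM in replicate 1 and 62.9 TPM in replicate 2 for Psmb6, and was 21.2-fold and 33.7-fold below it. Psmb10 had 17.5 and 13.3 TPM in the same order, against 71.9 and 70.6 TPM for Psmb7. The mean log2 ratio over the 3 pairs was -3.41 ± 0.39 (SD, n = 2), with -3.13 in replicate 1 and -3.68 in replicate 2. On protein-coding transcripts alone, by RSEM, it was -4.39; 73.8% of Psmb10 TPM in replicate 1 and 55.5% in replicate 2 lay on other transcript types.

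**Figure D4:**
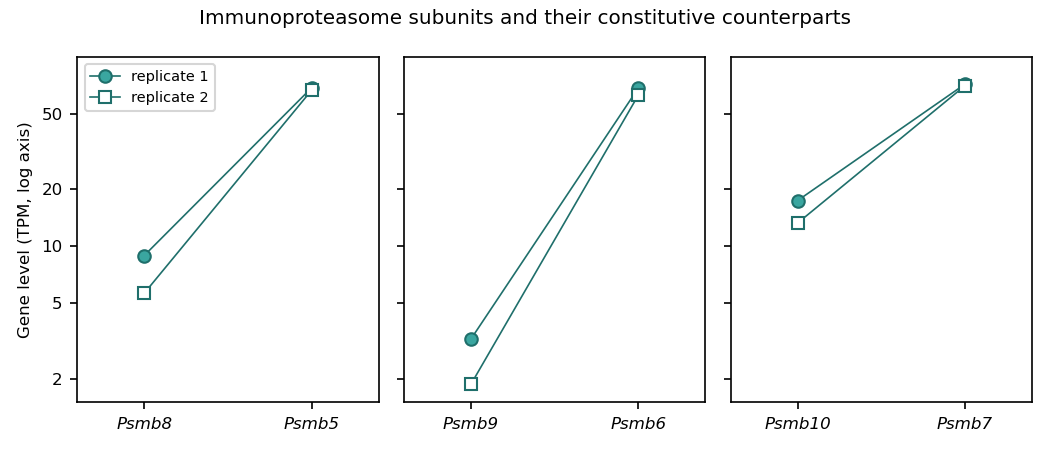
TPM on a log axis of the immunoproteasome subunits Psmb8, Psmb9 and Psmb10 (left in each panel) and of the constitutive subunits they replace, Psmb5, Psmb6 and Psmb7 (right), with lines joining values of one library. The constitutive subunits lie between 62.9 and 71.9 TPM in both libraries, and every immunoproteasome subunit lies at or below 17.5 TPM.

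Set against each other, the classes changed rank between the libraries. The class II chains H2-Aa, H2-Ab1 and H2-Eb1 with Cd74 lay above H2-K1 and H2-D1 in replicate 1, at 1.17-fold, and below them in replicate 2, at 0.429-fold. The mean log2 ratio was -0.50 ± 1.02 (SD, n = 2), an SD wider than the mean, so neither class can be called the higher.

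Among the regulators, Ciita and Nlrc5 were past 2-fold, but both were under 1 TPM in replicate 2. They passed the minimum mean only through replicate 1, where they are high, so their count supports nothing. Ciita, the class II transactivator, had 2.17 TPM in replicate 1, against 0.33 TPM in replicate 2, with 307 and 40 counts and a 5.28-fold ratio. Nlrc5, its relative that drives class I genes, had 2.58 TPM in replicate 1, against 0.55 TPM in replicate 2, 4.12-fold apart. Both were low in level, at ranks 12085 and 11620 among nuclear protein-coding genes. Of all 12535 nuclear protein-coding genes compared, 2.34% were over 2-fold higher in replicate 1 and 3.33% in replicate 2. Like most genes, the DNA-binding factors that Ciita joins, Rfx5, Rfxap, Rfxank, Nfya, Nfyb, Nfyc and Creb1, were all within 2-fold. Their median log2 ratio was 0.17. The most abundant of them, Nfyc, had 19.8 TPM in replicate 1, against 15.9 TPM in replicate 2.

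The interferon factors lay closer. Irf8, a factor of myeloid and B cell development, had 8.45 TPM in replicate 1, against 4.56 TPM in replicate 2, 1.83-fold apart by RSEM and 2.50-fold by kallisto. Irf1, an activator of class I and immunoproteasome genes, had 8.70 TPM in replicate 1, against 5.30 TPM in replicate 2. Irf9 and Stat2, which act together at the interferon-stimulated response element, differed less. Irf9 had 4.44 TPM in replicate 1, against 3.48 TPM in replicate 2, and Stat2 6.75 TPM, against 5.94 TPM. Irf7, the factor that amplifies type I interferon, stood at 2.06 and 1.39 TPM. Stat2 was the only member whose direction differed between RSEM and kallisto, with a kallisto ratio of 0.924.

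Of 12 interferon receptor and signalling genes outside the set, 10 passed the minimum and 0 were past 2-fold. Most nuclear protein-coding genes likewise lay within 2-fold. Ifnar2, a chain of the type I receptor, had 22.9 TPM in replicate 1, against 22.6 TPM in replicate 2, and Ifngr1 had 25.7 and 18.6 TPM. All 8 interferon genes listed, Ifnb1, Ifng, Ifna1, Ifna2, Ifna4, Ifne, Ifnl2 and Ifnl3, had 0 expected counts in both libraries, which allows up to 3 counts in each.

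The interferon-stimulated genes as a group differed little, with a median log2 ratio of 0.081, 4 genes higher in replicate 1 and 3 higher in replicate 2. Over the same 7 genes the kallisto median was 0.073, and it was 0.43 over 8 genes once Ifit1, at 1 TPM or more by kallisto, was included. The RSEM median was -0.076 over the 2 genes averaging 5 TPM or more, and with ERCC scaling Ifi27 changed direction. Ifi27, an interferon-induced membrane protein gene, dominated the group, with 310 TPM in replicate 1 and 324 TPM in replicate 2. It ranked 83 of the nuclear protein-coding genes by mean level and exceeded the other 7 genes together 12.2-fold in replicate 1 and 14.2-fold in replicate 2. Bst2, the tetherin that holds budding virions at the cell surface, had 12.2 TPM in replicate 1, against 12.9 TPM in replicate 2. The guanylate-binding proteins, which attack vacuoles of intracellular pathogens, differed from each other, with Gbp2 at 3.37 and 3.18 TPM in replicates 1 and 2 and Gbp3 at 3.85 and 2.18 TPM. Ifit3, of the family that binds viral RNA, had 2.19 TPM in replicate 1, against 0.98 TPM in replicate 2, 2.12-fold apart by RSEM and 1.92-fold by kallisto. Ifit1 stood at 0.96 and 0.53 TPM, under the minimum, and Oasl2 at 2.05 and 1.75 TPM. Isg15, the ubiquitin-like modifier, had 0.88 TPM in replicate 1, against 1.24 TPM in replicate 2, on 19 and 29 counts, with overlapping credibility intervals.

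The window of Isg15 is shown because 3 response element cores overlap there, each sharing bases with the next, in capitals.
Isg15 (chr4:156200769-156201068, minus strand): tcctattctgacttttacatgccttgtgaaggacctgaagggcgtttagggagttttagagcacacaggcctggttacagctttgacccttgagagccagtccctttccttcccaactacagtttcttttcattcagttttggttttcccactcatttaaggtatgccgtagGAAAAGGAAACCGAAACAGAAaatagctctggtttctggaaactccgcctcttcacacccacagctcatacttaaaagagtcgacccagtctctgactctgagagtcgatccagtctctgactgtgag
The overlapping cores begin 78, 72 and 66 bases before the start, and the gene lay at 1.06 ± 0.255 TPM (SD, n = 2).

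Of 16 further interferon-stimulated genes that passed the minimum, 2 were over 2-fold higher in replicate 1, against 2.34% of 12535 nuclear protein-coding genes. They were Gbp4 at 2.89 TPM in replicate 1, against 1.19 TPM in replicate 2, and Gbp5 at 1.53 and 0.71 TPM. Of these, Gbp5 passed the minimum only through replicate 1. The most abundant of that list, Ifitm3, had 32.95 TPM in replicate 1, against 45.6 TPM in replicate 2, and Rsad2 had 7.21 and 7.18 TPM. Of 5 further class I genes that passed, Fcgrt, the neonatal Fc receptor, had 40.5 TPM in replicate 1, against 37.4 TPM in replicate 2, and H2-Q10, a class I gene made in liver, had 1.17 and 16.5 TPM. H2-Q10 was the only one of those 5 past 2-fold, in the direction of the liver markers, whose part in it was not tested. The 6 lysosomal proteases and related enzymes of class II processing were all within 2-fold, like most nuclear protein-coding genes. Ctss, which trims the invariant chain, was at 7.56 TPM in replicate 1, against 4.09 TPM in replicate 2, and Ctsd at 180.4 and 183.6 TPM.

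The 39 genes have 223 annotated transcripts. The most abundant was typed protein coding for 32 genes and not for 7. H2-Eb1 placed 91.0% of its TPM in replicate 1 and 92.4% in replicate 2 on such transcripts, mostly H2-Eb1-205, typed as a target of nonsense-mediated decay. By kallisto the mean for H2-Eb1 was 85.3%. Tap2 placed 81.8% of its TPM in replicate 1 and 77.2% in replicate 2 on the retained intron transcript Tap2-202 by RSEM, but 55.4% and 49.4% by kallisto. Ifi27 placed 55.8% in replicate 1 and 55.0% in replicate 2 on transcripts not typed protein coding by RSEM, with a mean of 47.0% by kallisto. Its leading transcript, the retained intron transcript Ifi27-209, held 44.6% and 43.5% by RSEM. Of the 34 genes with more than 1 transcript, 22 had the same leading transcript in both quantifications and 12 did not, so a leading transcript in those 12 is uncertain.

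Cd74 has 2 main coding forms. Cd74-202 has a coding length of 837 bases, 192 bases longer than the 645 bases of Cd74-201, and the longer form is known to carry an added thyroglobulin-type domain that inhibits cathepsins. Cd74-202 held 21.8% of Cd74 TPM in replicate 1 and 32.4% in replicate 2. By kallisto the share was 22.7% in replicate 1 and 35.7% in replicate 2, the same direction, while Cd74 itself was 4.18-fold higher in replicate 1. With 2 libraries it cannot be shown whether this share differs beyond the spread of animals.

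**Figure D5:**
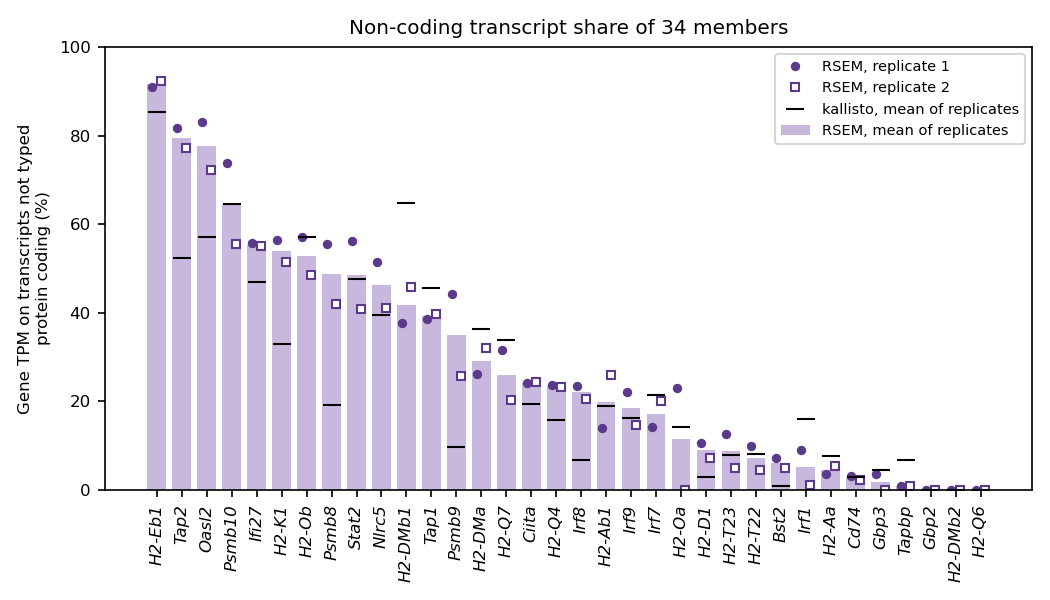
Share of each gene's TPM, in percent, on transcripts not typed protein coding, for the 34 members with more than 1 transcript; bars are the mean of the RSEM values of both libraries, points the single libraries and black dashes the kallisto mean. H2-Eb1, Tap2 and Oasl2 have the highest shares, and the gap between bar and dash is widest for genes such as Psmb8 and Tap2.

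Agreement between the quantifications limited the rest. Kallisto TPM exceeded RSEM TPM for all 39 genes, by 1.04-fold to 2.79-fold, against a median of 1.51-fold over all genes tested. Of the same 37 members, 12 were over 2-fold higher in replicate 1 by kallisto, against 13 by RSEM. The share of all genes past 2-fold by kallisto was not computed. Of the 37 members, 23 had credibility intervals wholly higher in replicate 1, against 11.6% of the 12535 genes, and 1 had them wholly higher in replicate 2, against 8.9%. The 23 include H2-Q6, H2-Q7, H2-M3, Nlrc5, Ciita, H2-DMb1, H2-DMb2, H2-Ob and Ifit3, all under 1 TPM in replicate 2. They passed the minimum only through replicate 1, so the count of 23 supports nothing, and none was made at 1 TPM in both libraries. These intervals cover the counting and assignment of reads within a library and not the spread between animals, and 11 members had under 50 counts in at least 1 library. On the mm10 build, 21 members lie on chromosome 17, where the MHC is, with H2-K1 from 33996017 to 34000347 and H2-Eb1 from 34305867 to 34316674, and the remaining 18 elsewhere.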

How the data were processed

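Total RNA of 14-day adrenal glands was sequenced in 2 libraries of 1 group, with replicate numbers from the labels. Expected counts and TPM per gene and transcript were deposited by the authors on mm10 with GENCODE M21, per the deposited file list. The file headers show RSEM column names, with the aligner and versions not given in the sources used here. Gene tables deposited by the authors likewise hold posterior mean TPM, credibility bounds of TPM (a signal with no fixed total) and FPKM, which was not used, per the file headers. The percent of a gene on each transcript was deposited too, per the file headers, and recomputed here from TPM. A second, kallisto-style quantification with estimated counts and TPM was deposited, per the file headers, and summed here to genes. Effective length, in bases, is another deposited column.

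Ratios used log2(TPM + 0.1) for genes averaging 1 TPM or more, and 2-fold was the line for a call. The fold calls were tested on simulated counts. Changes were planted only in genes averaging 5 TPM or more, so the recovery of changes at lower levels was not checked. Size factors came from edgeR 4.0.16 (TMM) and DESeq2 1.42.0, used for scaling only, in R 4.3.3; no test was run, as there is 1 group of 2 libraries. Alternatives were kallisto, posterior mean TPM, these scalings, ERCC scaling, and other pseudocounts, minima and folds. Other steps used Python 3.11.15, pandas 2.3.3 and numpy 2.4.6. The text names all 39 members, the constitutive proteasome subunits, and from other lists marker sums and the most abundant genes or those past 2-fold; Ctss and single dendritic cell markers were named after their values were seen. The members and lists were chosen with earlier results of these data known.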

Additional observations from a re-analysis of the deposited data

How the results depend on the processing

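No paired analysis was possible because both libraries belong to 1 group. Differences between the libraries cannot be recomputed without a replicate. The 13 members over 2-fold higher in replicate 1 became 4 of 19 at a minimum mean of 5 TPM and 22 at 1.5-fold; without the 6 members with 95% or less unique 100-base stretches, an alternative chosen after seeing the data, it was 8 of 31, and at 1 TPM or more in both libraries, likewise added, 5 of 27. Other settings gave 10 to 14, and 0 members were over 2-fold higher in replicate 2 under every setting run. For replicate 1, the share of all nuclear protein-coding genes was 2.34% at the main setting and 1.07% at 1 TPM or more in both libraries. It was not computed for the other settings, so their counts have no comparison. The class I heavy chain median of 0.68 became 0.61 with TMM, 0.60 with median-of-ratios and 0.76 with ERCC scaling, 0.58 with a pseudocount of 1 and 0.58 at 5 TPM. The peptide supply median of 0.39 became 0.11 with TMM, 0.10 with median-of-ratios, 0.26 with ERCC scaling and 0.11 at 5 TPM. The class II median of 2.02 became 2.13 with ERCC scaling and 1.76 with a pseudocount of 1. The interferon-stimulated median of 0.081 became 0.43 with kallisto over 8 genes (0.073 over the same 7), 0.0092 with TMM, 0.0050 with median-of-ratios, 0.16 with ERCC scaling and 0.15 with no minimum, and -0.076 at 5 TPM, where 2 genes remain. Members detected in both libraries fell to 17 at 5 TPM and numbered 28 to 37 in single libraries. After seeing the data, protein-coding transcripts alone were tried: the immunoproteasome log2 ratio was -4.39 and H2-K1 over H2-D1 0.14 (0.65 by kallisto), or 0.047 on expected counts. In single libraries the ratios spanned -3.68 to -3.13 for the immunoproteasome, 1.07 to 1.18 for H2-K1 over H2-D1 and -1.22 to 0.22 for class II with Cd74 over classical class I, which reversed without replicate 2. Directions of single members changed for Stat2 with kallisto, TMM and median-of-ratios, and for B2m, Ifi27 and Stat2 with ERCC scaling. The causes were not tested. Depth limits the genes under 50 counts.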
